A study of Drosophila melanogaster with 2 samples.

Results

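Among protein-coding genes of Drosophila melanogaster, 39 held 5 or more binding summits of a GFP-tagged Rel protein. They were chosen by the number of summits in the gene or up to 1000 bp upstream, counted in the list of 2133 peaks that the authors kept after the irreproducible discovery rate (IDR) procedure. In all, 48 of 13945 protein-coding genes (0.344%) reached this number, and 9 of them, Eip75B, Eip74EF, EcR, br, tai, ush, puc, sbb and shn, were left out by name. Peak counts thus define the group, and every statement on the number of summits, their spacing and their density is a description without a test.

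The peaks came from ChIP-seq with an anti-GFP antibody on larvae in the wandering stage of the third instar, as whole animals with both sexes pooled. Both biological replicates, numbered 2 and 3, were of 1 group, from a stable line in which GFP is fused to the C terminus of Rel. What drives expression of the fusion is not given in the sources used here. No untagged or infected group was analysed here, although a control alignment entered the peak calling. A whole larva mixes fat body, gut, muscle, epidermis, imaginal discs, nervous system and blood cells, so a summit cannot be assigned to a tissue. Depth is unknown because the peak lists hold no read counts.

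Rel is an NF-κB family protein best known for turning on antimicrobial peptide genes after the Imd receptor pathway senses bacterial peptidoglycan. The full-length protein carries an inhibitory C-terminal part that is cut off on activation, so a tag at the C terminus follows forms that still hold that end. Long regulatory genes in flies often carry many introns, several alternative promoters and enhancers spread over large introns. ChIP-seq summits mark where fragments pile up, and a gene can gather many of them through its length alone, through a dense cluster, or through other genes that lie inside it.

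The sequence under the summits is shown first for Trl, which encodes GAGA factor, a protein that binds GA repeats and keeps promoters open. It had 5 summits within 13.1 kb on chromosome 3L, all of them inside 5 kb, and is shown because it is among the most densely bound of the genes and because its protein recognises the repeat discussed later. Each line is 201 bases on the plus strand of dm6, centred on the summit, in order along the chromosome. Capitals mark GAGAGAG or CACACACA on either strand. The window of the fourth summit is not shown because it overlaps untranslated exon sequence.
Trl summit 1, chr3L:14755269-14755469: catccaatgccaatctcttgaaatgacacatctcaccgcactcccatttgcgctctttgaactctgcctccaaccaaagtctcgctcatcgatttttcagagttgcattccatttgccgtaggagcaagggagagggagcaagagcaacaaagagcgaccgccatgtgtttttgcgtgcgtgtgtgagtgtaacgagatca
Trl summit 2, chr3L:14755493-14755693: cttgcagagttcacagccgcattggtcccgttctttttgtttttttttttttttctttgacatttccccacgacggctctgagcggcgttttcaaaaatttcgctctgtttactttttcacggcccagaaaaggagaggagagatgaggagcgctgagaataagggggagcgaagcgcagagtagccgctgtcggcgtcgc
Trl summit 3, chr3L:14756472-14756672: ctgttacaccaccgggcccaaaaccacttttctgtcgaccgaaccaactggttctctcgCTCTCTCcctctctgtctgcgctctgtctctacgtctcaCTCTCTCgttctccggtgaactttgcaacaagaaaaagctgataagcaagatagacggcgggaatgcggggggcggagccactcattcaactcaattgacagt
Trl summit 5, chr3L:14759433-14759633: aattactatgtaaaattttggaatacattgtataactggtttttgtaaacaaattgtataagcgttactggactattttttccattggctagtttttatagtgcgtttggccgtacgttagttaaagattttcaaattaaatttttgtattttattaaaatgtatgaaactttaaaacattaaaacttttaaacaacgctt

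Of these windows, that of summit 3 held GAGAGAG, at 2 places and both times on the minus strand. The first and second summits lie 224 bp apart, and the window of the fifth, the strongest at rank 99, had a GC content of 24.4% against 49.3 to 52.7% in the other windows printed.

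Tlk, the Tousled-like kinase of chromatin assembly, had GAGAGAG in 3 of its 9 windows. The next lines show its strongest summit and 2 of these windows, on the same scale and with the same capitals.
Tlk summit 2, chrX:3742064-3742264: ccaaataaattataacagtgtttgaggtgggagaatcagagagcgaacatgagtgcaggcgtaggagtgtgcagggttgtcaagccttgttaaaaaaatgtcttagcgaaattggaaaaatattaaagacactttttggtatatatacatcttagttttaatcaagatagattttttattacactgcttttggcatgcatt
Tlk summit 7, chrX:3777267-3777467: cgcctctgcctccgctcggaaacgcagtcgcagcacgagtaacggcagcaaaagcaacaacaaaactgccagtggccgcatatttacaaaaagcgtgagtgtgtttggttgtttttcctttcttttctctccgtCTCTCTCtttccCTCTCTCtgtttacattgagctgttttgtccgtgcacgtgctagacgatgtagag
Tlk summit 8, chrX:3778116-3778316: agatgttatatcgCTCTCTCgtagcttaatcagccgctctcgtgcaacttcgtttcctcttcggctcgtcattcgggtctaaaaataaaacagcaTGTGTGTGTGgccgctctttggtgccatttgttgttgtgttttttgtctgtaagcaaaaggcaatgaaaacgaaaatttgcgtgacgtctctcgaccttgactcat

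Tet and tara had the most summits of the genes on the arms from which sequence is shown. Tlk followed, level with kirre in number and taken for its stronger best summit, and bowl and Trl were the densest. For Tet the window with GAGAGAG and the strongest one are given, and for tara and bowl the strongest one.
Tet summit 4, chr3L:2821193-2821393: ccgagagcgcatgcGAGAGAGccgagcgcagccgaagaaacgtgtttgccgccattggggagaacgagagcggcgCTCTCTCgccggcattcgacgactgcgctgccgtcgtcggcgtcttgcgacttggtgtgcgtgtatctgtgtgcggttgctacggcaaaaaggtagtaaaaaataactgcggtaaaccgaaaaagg
Tet summit 5, chr3L:2824178-2824378: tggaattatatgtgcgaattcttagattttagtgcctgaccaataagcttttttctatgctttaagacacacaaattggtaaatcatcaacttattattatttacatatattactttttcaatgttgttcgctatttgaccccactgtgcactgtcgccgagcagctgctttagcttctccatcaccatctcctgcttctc
tara summit 7, chr3R:16250314-16250514: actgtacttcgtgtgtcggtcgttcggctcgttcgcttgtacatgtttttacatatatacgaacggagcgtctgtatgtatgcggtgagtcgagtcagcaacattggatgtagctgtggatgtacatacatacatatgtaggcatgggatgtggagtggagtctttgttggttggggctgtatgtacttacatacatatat
bowl summit 1, chr2L:3771372-3771572: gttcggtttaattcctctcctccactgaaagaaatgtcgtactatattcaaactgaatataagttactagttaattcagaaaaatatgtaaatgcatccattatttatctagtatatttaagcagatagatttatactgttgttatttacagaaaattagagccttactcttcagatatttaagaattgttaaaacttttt

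The strongest windows of Tlk, Tet, tara, bowl and Trl held neither repeat string.

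The genes held from 5 to 11 summits, and the length of each in kb follows its name in brackets. Tet (93.0), a dioxygenase of the TET family, and jing (119.8), a zinc finger transcription factor, had 11 each. The transcriptional coregulator gene tara (34.7) had 10, and Tlk (69.8) and kirre (394), an immunoglobulin-family adhesion protein of muscle founder cells, had 9. CG1677 (125), Samuel (53.8) and the forkhead factor gene CHES-1-like (27.05) had 8. Next came 5 genes with 7 summits, namely simj (25.996), brat (45.9), mam (69.2), pyd (105) and Mur2B (145). The 10 genes with 6 were Syp (54.0), spen (44.4), bun (91.1), fz2 (94.4), Raf (48.4), Egfr (37.6), Svil (122), Tis11 (23.1), psq (59.4) and heca (94.5). The 16 genes with 5 were Btk (42.7), Trl (13.1), Sin3A (17.7), bowl (12.4), Dad (16.4), ex (17.5), chn (29.5), px (67.8), lola (61.4), HmgD (15.3), HmgZ (10.4), mamo (144), Shrm (43.7), NK7.1 (43.5), heph (169) and E2f1 (40.6). Together they held 244 different summits, 11.4% of the list, in 2.06% of the length of the main chromosomes. By chromosome, 7 genes lay on 2L, 11 on 2R, 5 on 3L, 8 on 3R, 8 on X and 0 on chromosome 4.

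Below the threshold, 40 genes that are not among those left out held exactly 4 summits. The 5 with the strongest summits were ph-p (best rank 17), jim (27), PAN3 (36), REPTOR (40) and vri (50). Their median length was 33.7 kb and their median density 0.117 summits per kb, beside 35.1 kb and 0.142 for the 16 genes with exactly 5. The median best rank was 334 with 4 summits and 328 with 5.

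**Figure D1:**
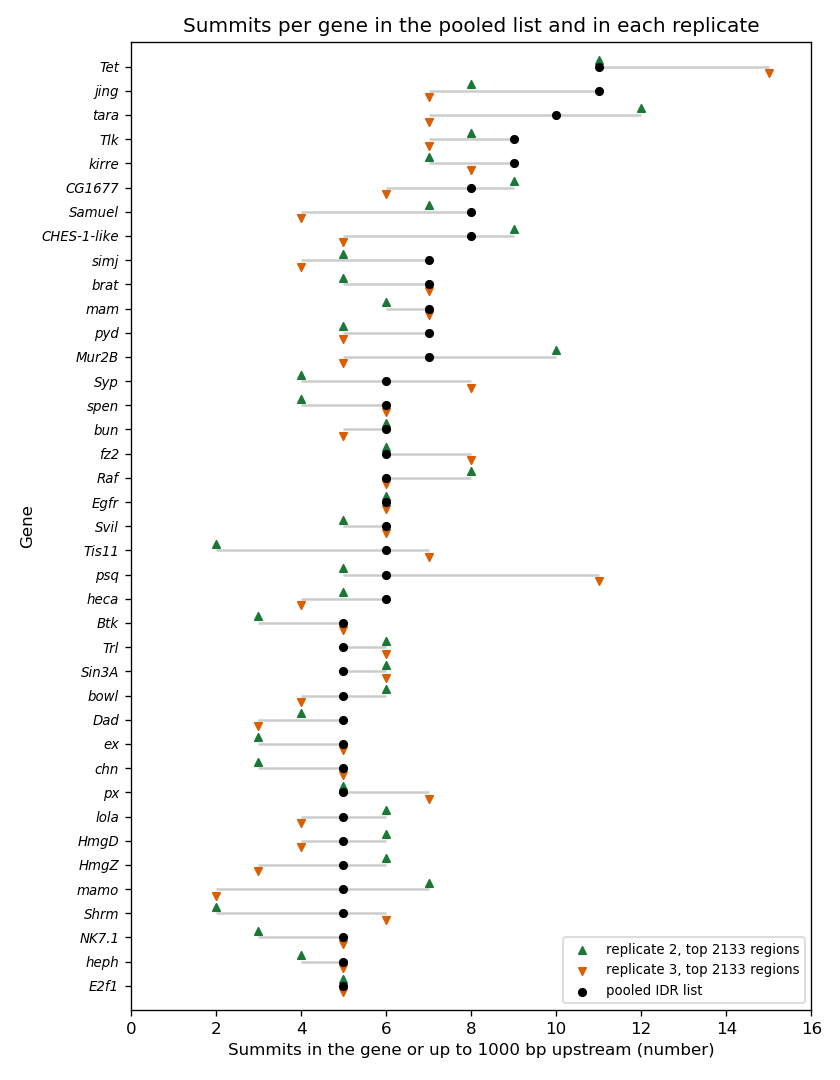
Number of summits per gene (x axis) for the 39 genes (y axis) in the pooled IDR list (black circles) and among the top 2133 regions of replicate 2 (green triangles pointing up) and of replicate 3 (orange triangles pointing down), with a grey line over their range. Counts agree for Egfr and E2f1, whereas Tis11, mamo and psq differ widely between replicates.

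Each replicate alone gave nearly the same total over these genes, with 228 summits among the top 2133 regions of replicate 2 and 229 among those of replicate 3. Individual genes differed more. Tet had 11 summits in replicate 2 and 15 in replicate 3, and tara had 12 and 7. For jing the counts were 8 and 7, for Tlk 8 and 7, for kirre 7 and 8, and for CHES-1-like 9 and 5. Egfr had 6 and 6, E2f1 5 and 5, Trl 6 and 6, and Sin3A, a scaffold of histone deacetylase complexes, 6 and 6. The zinc finger gene mamo had 7 in replicate 2 and 2 in replicate 3, Tis11 had 2 and 7, and Shrm 2 and 6. At the cut of 2133 regions, 1 library thus carried most of the top summits of each. Of their IDR summits, 3 of 5 at mamo, 2 of 6 at Tis11 and 2 of 5 at Shrm were in top regions of both replicates. Binding below the cut is not counted here. The count was higher in replicate 2 for 17 genes, higher in replicate 3 for 17, and equal for 5. In both lists 21 genes reached 5 summits, among them Tet, jing, tara, Tlk, kirre, Egfr, Trl, Sin3A, E2f1, brat, mam and psq. Since the pooled list was made from the same reads, these counts are no independent check of it.

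Of the 244 summits, 158 (64.8%, exact Clopper-Pearson 95% interval 58.4 to 70.7) lay in a region that was among the top 2133 of both replicates. For the 1600 other summits in or upstream of a protein-coding gene the share was 59.1% (56.6 to 61.5). The intervals overlap, and the difference was not tested, since summits of 1 gene are not independent. Intervals here and below cover counting error only. Summits under 500 bp apart can match the same region of a replicate and then count as 2 in these shares. Such distances were 10.7% of those between neighbours in the 39 genes and 3.02% of all others. All summits were in the top regions of both replicates for 5 of the 39 genes, fz2 (6), psq (6), Trl (5), Sin3A (5) and px (5). In fz2, psq, Trl and Sin3A, 2 of the summits were matched to the same region in each replicate. Dad, the inhibitory Smad of Dpp signalling, had 1 of 5 summits there, Tis11 2 of 6, Mur2B 2 of 7, Shrm 2 of 5 and heph 2 of 5.

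The genes are long. Their median length was 48.4 kb (range 10.4 to 394), against 2.17 kb for all protein-coding genes and 7.01 kb for genes with 1 to 4 summits. None of the 11968 genes under 10 kb was among them. The share rose from 0.726% of genes of 10 to 20 kb (7 of 964) and 1.84% of those of 20 to 50 kb (13 of 706) to 4.91% of those of 50 to 100 kb (11 of 224). Over 100 kb it was 9.64% (8 of 83). The genes left out by name stay among all genes here but are not counted. With them, 0.830% of genes of 10 to 20 kb (8 of 964), 1.84% of those of 20 to 50 kb, 8.04% of those of 50 to 100 kb (18 of 224) and 10.8% of the longest (9 of 83) held 5 or more summits. Length enters the count, so these shares describe the rule as much as the genes.

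Many long genes held no summit. Among the 100 longest genes, 11 were members and 50 held 0 summits, and 1272 of the 1862 other genes at least as long as the shortest member (68.3%) held 0. The longest genes outside the group were Myo81F (1966 kb), Pzl (709 kb), lovit (434 kb), CG17684 (396 kb) and DIP-lambda (379 kb), all with 0 summits. Ten-a, a teneurin adhesion protein of 292 kb, held 1 summit. The RNA-binding protein genes bru3 (281 kb) and Rbp6 (179 kb), Snap25 (225 kb) of the synaptic vesicle fusion machinery, and l(3)80Fg (216 kb) held 0. How much of these genes could be mapped was not tested.

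**Figure D2:**
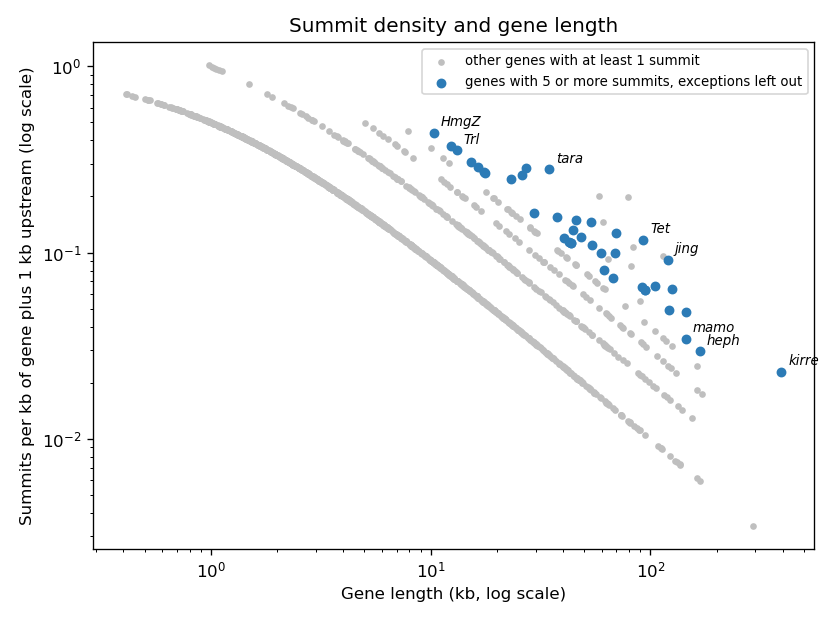
Summits per kb of gene plus 1 kb upstream (y axis, log scale) against gene length (x axis, kb, log scale) for every protein-coding gene with at least 1 summit, with the 39 genes in blue and selected genes named. Each grey diagonal is a fixed number of summits, and the 39 genes run from HmgZ at 0.440 per kb to kirre at 0.0228 per kb.

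Summit density differed 19.3-fold among the genes. The median over genes was 0.117 per kb of gene plus 1 kb upstream. Over their joint territory of 2752 kb the genes held 0.0887 summits per kb, 5.57 times the 0.0159 per kb of the main chromosomes as a whole. The territory of all other protein-coding genes held 0.0172. The highest densities were at HmgZ (0.440), bowl (0.373), Trl (0.354), HmgD (0.307), Dad (0.287), CHES-1-like (0.285), tara (0.280) and ex (0.271). These genes are all under 35 kb. The HMG-box genes HmgD and HmgZ overlap and share the same 5 summits, so their densities are 1 observation and not 2. The lowest were at kirre (0.0228), heph (0.0295), mamo (0.0344), Mur2B (0.0479) and Svil (0.0490), all over 100 kb. Across the 39 genes Spearman's rho of length was 0.446 with the number of summits and -0.943 with density, as descriptions of genes that share 1 peak list and a minimum of 5 summits. The gene tara held 10 summits in 34.7 kb, beside 11 in 93.0 kb at Tet and 11 in 119.8 kb at jing.

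Neighbouring summits were close together. The 206 distances between neighbouring summits of the same gene had a median of 2899 bp (quartiles 1322 and 8574), and 130 of them (63.1%) were under 5 kb. For the 1921 other distances between neighbours on a chromosome the median was 24021 bp and 24.3% were under 5 kb. The rule picks genes in which summits crowd, so the contrast is not a result of its own. Within genes the spacing was uneven. The median distance was smaller than even placement over the gene would give in 36 of 39 genes, with a median ratio of 0.530, the exceptions being jing, Svil and E2f1. Random placement also tends to give a median below the even distance, so this count cannot show crowding within genes. The standard deviation of the distances of a gene, divided by their mean, had a median of 0.942. Summits spanned a median of 57.8% of gene and upstream sequence, from 9.92% at lola to 93.4% at jing.

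**Figure D3:**
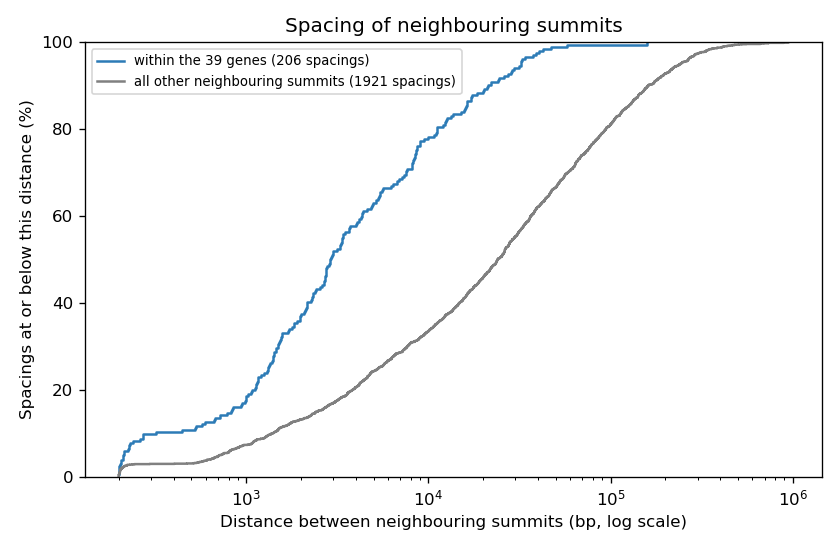
Cumulative share (y axis, %) of distances between neighbouring summits (x axis, bp, log scale) within the 39 genes (blue, 206 distances) and between all other neighbours on a chromosome (grey, 1921 distances). The blue curve starts at 199 bp, holds 1 distance between 320 and 500 bp, and crosses its midpoint at 2899 bp.

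Part of the crowding was of pairs closer than a peak is wide. Most peaks (91.4%) were 396 bp wide, and 22 of the 206 distances were under 500 bp. In 21 of these pairs, from 199 to 320 bp apart, the peaks overlapped. In each replicate, the best-ranked region that both peaks of such a pair overlapped was the same. Such pairs occurred in 20 genes, among them simj and Samuel, each with 2 of them, and Trl, Tlk, spen and jing. Overlapping peaks readily share their best match, and whether a replicate held a second region there was not checked. In the pooled list a close pair counts as 2 summits. With summits closer than 500 bp merged, 30 genes still held 5 or more, and Btk, HmgD, HmgZ, Sin3A, Trl, bowl, chn, lola and mamo fell below. The smallest median distance was 519 bp at chn, a zinc finger gene of sensory organ development, whose summits 203 bp apart had overlapping peaks and whose summits 446 bp apart did not. The next smallest medians were 835 bp at HmgD and HmgZ, 1215 bp at Trl and 1293 bp at ex. With a close pair counted as 2 summits, 24 genes had at least 3 summits inside 5 kb. All 5 lay inside 5 kb in 4 genes, Trl, Sin3A, HmgD and HmgZ, of which the last 2 share the same summits. Each of these 4 genes holds a close pair with overlapping peaks, so none has 5 summits inside 5 kb once such pairs are merged.

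The genes were bound in introns more than at promoters. Only transcription start sites (TSS) of protein-coding genes were used, here and below. Of the 244 summits, 178 (73.0%, exact interval 66.9 to 78.4) lay in introns more than 500 bp from any such TSS and 62 (25.4%, 20.1 to 31.4) within 500 bp of one. Of the other summits in or upstream of protein-coding genes, 43.5% (41.1 to 46.0) and 51.6% (49.1 to 54.1) did so. The difference was not tested. Gene length differed too, with medians of 48.4 kb here and 7.01 kb for genes with 1 to 4 summits, and its part in the difference was not tested. The coding sequence class held 0 of 244 summits, for which 3 counts would be a share of 1.23% and the exact interval runs from 0 to 1.5005%. The untranslated exon class held 2, both in spen. The promoter class was assigned first, so its 62 summits were not checked for lying in exons. With HmgD and HmgZ counted separately, the 249 gene and summit pairs comprised 49 summits at a TSS of the gene itself. A further 16 were at the TSS of another gene only, and 10 lay upstream of the gene.

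**Figure D4:**
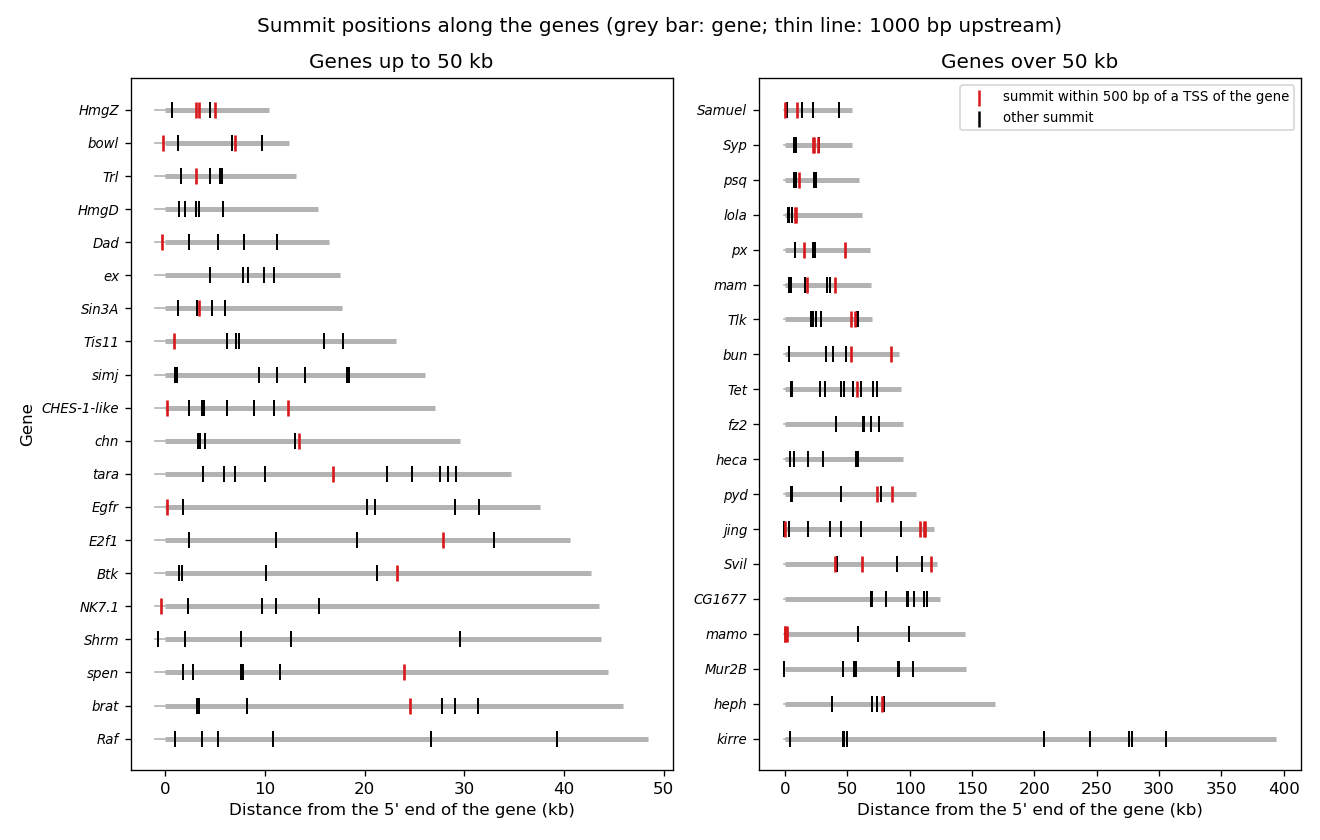
Position of each summit as distance from the 5′ end of its gene (x axis, kb) for the 39 genes (y axis), in separate panels for genes up to 50 kb and over 50 kb, with red marks within 500 bp of a TSS of the gene and black marks elsewhere. At lola all 5 marks lie near the 5′ end, at tara the 10 marks run along most of the gene, and kirre has wide stretches with none.

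Along the genes, cut into 3 equal parts from 1000 bp upstream to the 3′ end, 108 of the 249 lay in the first part, 89 in the middle part and 52 in the last. The last part held no summit in 16 genes, among them lola, mam, psq, Syp, spen and Sin3A. The first part held none in CG1677, fz2 and Svil, and CG1677 had 5 of its 8 summits in the last. The longest intron of a gene held 108 of the 249 summits. All summits lay in it at CG1677 (8, intron of 72465 bp), simj (7, 19639 bp), Raf (6, 43637 bp), HmgD (5) and chn (5). The longest intron held none of the summits of 7 genes, Tlk, bun, fz2, psq, HmgZ, mamo and heph. At least 1 summit lay at a TSS of the gene itself in 29 of the 39 genes. The 10 without were kirre, CG1677, simj, Mur2B, fz2, Raf, heca, ex, HmgD and Shrm. The genes had a median of 3 groups of TSS more than 500 bp apart, and only simj and ex had 1.

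Several genes shared summits with genes that lie inside or across them. At 11 genes, at least 1 summit also lay in or upstream of another protein-coding gene. Mur2B, a mucin-related gene of 145 kb on X, shared 5 of its 7 summits with br, the ecdysone-response regulator broad that the rule leaves out. Of its 2 summits outside br, 1 was shared with CG3740 and hfw. Trl shared 4 of 5 with CG42507. In CG1677, 2 of 8 summits were in or upstream of brk, the Brinker repressor of Dpp targets, and 1 each belonged also to unc-119, Dok and CBP. The strongest summit of CG1677 (rank 153) was the one shared with Dok. In kirre, which contains 27 other annotated genes, 3 of 9 were shared with CG32795 and 1 each with CG3603 and Syx4. With summits at the TSS of another gene left out, HmgD, Mur2B, NK7.1 and heph fell below 5 and 35 genes were left.

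By roles assigned after the genes were known, the largest classes were transcription factors (11 genes) and chromatin or transcription cofactors (8 genes). Roles were assigned to these 39 genes only, so the counts have no share of all genes beside them and show no excess of a class. Among the transcription factors, jing had its strongest summit, rank 135, 147 bp upstream of its 5′ end. Towards its 3′ end 3 further summits lay 5, 47 and 205 bp from a TSS of jing, and 2 of them were 200 bp apart. The forkhead gene CHES-1-like had 8 summits within 12185 bp, and ranks 292 and 293 were its strongest. Both psq and lola encode BTB-domain proteins, the first of which also binds GA repeats, and they are neighbours on 2R, 14596 bp apart, with 6 and 5 summits. The 5 summits of lola lay within 6192 bp near its 5′ end and 3 of their windows held GAGAGAG. In bun, a TSC22-domain gene, the strongest summit ranked 80. NK7.1 encodes a homeodomain protein, and E2f1 the cell-cycle factor E2F. The 5 summits of E2f1 were spaced 5139 to 8667 bp apart, and no 5 kb stretch of it held more than 1. In the odd-skipped family gene bowl the strongest summit (rank 138) lay 228 bp from the TSS, and mamo had 3 of 5 summits within 500 bp of its TSS, 1547 and 260 bp apart.

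Among cofactor genes, Tet had its strongest summit at rank 34 in an intron (chr3L:2824061-2824368), at rank 33 in replicate 2 and 37 in replicate 3. Of its 11 summits, 10 were intronic and more than 500 bp from a TSS, and 9 were in the top regions of both replicates. The gene tara had no summit above rank 274, and 9 of its 10 were intronic. Mastermind, the Notch coactivator encoded by mam, had 7 summits, 2 of them at its own TSS. The gene simj encodes the p66 subunit of the Mi-2 nucleosome remodelling complex. Its 7 summits include 2 close pairs and none at a TSS. In Sin3A the 5 summits lay within 4758 bp, with ranks from 123 to 1536.

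Genes of RNA-binding proteins were 5, with a median density of 0.132 per kb. Syp, a Syncrip homologue, carried the strongest summit of all 39 genes, rank 25 (signal 355 by the authors' scale), 158 bp from one of its TSS. It ranked 25 in replicate 2 and 14 in replicate 3. A second strong one, rank 122, was 174 bp from another TSS of Syp, and rank 119 lay in an intron. The gene spen, which encodes a large RNA-binding corepressor, had its strongest summit, rank 47, in an untranslated exon. The translational repressor gene brat had 7 summits, 3 of them in windows with GAGAGAG. Tis11, whose protein promotes decay of AU-rich mRNAs, had 6, and heph, the polypyrimidine tract-binding protein, 5 within 41463 bp of its 169 kb.

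Signalling genes were 6, from several pathways. Egfr, the EGF receptor, had 6 summits, the first 112 bp from its TSS (rank 334) and the strongest, rank 200, in an intron. All 6 summits of fz2, a Wnt receptor, were intronic, the strongest (rank 159) 23678 bp from the nearest TSS. The kinase gene Raf had its strongest summit at rank 172 in its longest intron. Btk, a Tec family kinase, had a summit of rank 30 at a TSS, 188 bp away, which ranked 45 and 17 in replicates 2 and 3. The last 2, Dad and ex, an upstream regulator of Hippo signalling, had strongest ranks of 162 and 166. The summits of Dad were the most regular, 2661 to 3292 bp apart.

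The 4 genes of adhesion, junctions and the cytoskeleton were the longest class, with a median of 113 kb and a median density of 0.0575 per kb. They were kirre, pyd (the ZO-1 homologue of cell junctions, 7 summits), Svil (supervillin, an actin-binding protein, 6) and Shrm (Shroom, an actin regulator, 5). Their strongest summit, in Svil, ranked 443. CG1677, Samuel, Mur2B, heca and px were not put in a class. The median rank was 1001 for the 244 summits and 1077 for all 1889 others, and 21 (8.61%, exact interval 5.41 to 12.9) were among the 200 strongest, beside 9.48% (8.19 to 10.9) of the others.

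Wider gene lists give the setting. They were drawn up apart from the roles above, and 16 of the 39 genes are on any of them. The kinase genes Raf, Btk and Tlk, the junction and cytoskeleton genes pyd, Svil and Shrm, and the transcription factor genes CHES-1-like, chn and E2f1 are on none, and HmgD, a cofactor gene above, is on the transcription factor list. Of 98 transcription factor genes listed, 51 held at least 1 summit, where 10.6% of all protein-coding genes did, and 9 were members. Of 39 chromatin and cofactor genes 16 held a summit and Sin3A was a member, and of 46 RNA-binding genes 25 did, with Syp, heph and brat as members. Kinases and phosphatases had 23 of 53 and small GTPase regulators and cytoskeletal genes 30 of 63, with 0 of the 39 genes on either list. For receptors, adhesion proteins and ligands the count was 23 of 79, with fz2, Egfr and kirre as members. Of 47 neuronal channel and synapse genes, 4 (8.51%) held a summit and 0 were members. Their median length was 40.6 kb, against 22.4 kb for the transcription factors. Metabolic and fat body genes had 9 of 30, haemocyte and immune genes 7 of 33 and muscle genes 5 of 18, all with 0 members. Members were 39 of all 13945 protein-coding genes, and 1.84% of genes of 20 to 50 kb. A count of 0 members in lists of 18 to 63 genes therefore shows no lack. The lists were made with earlier results of these data known, and were not matched on length or tested.

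Sequence strings at the summits were counted in windows of 201 bp. GAGAGAG, bound by GAGA factor, was in 33 of 244 windows (13.5%, exact interval 9.50 to 18.5). Of the other summits in or upstream of protein-coding genes 11.8% held it (10.2 to 13.4), and of 664860 windows tiled over the main chromosomes 2.45%. CACACACA was in 32 windows (13.1%, 9.15 to 18.0), beside 9.06% (7.70 to 10.6) and 4.09%. For the GATA string AGATAA the shares were 12.7%, 12.4% and 10.9%. The kB string, GGG and CC with 5 bases between them, was in 18 windows (7.38%, 4.43 to 11.4), beside 8.38% (7.06 to 9.84) of the other summits and 12.8% of tiled windows. It is a loose form of the site that NF-κB proteins bind. None of these shares was tested, and the intervals of both sets of summits overlapped for each string. A run of 8 A was in 24.2% of windows (18.9 to 30.1) and in 18.6% (16.7 to 20.6) of the others. The median GC content was 39.8%, against 38.3% at all 1889 other summits.

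**Figure D5:**
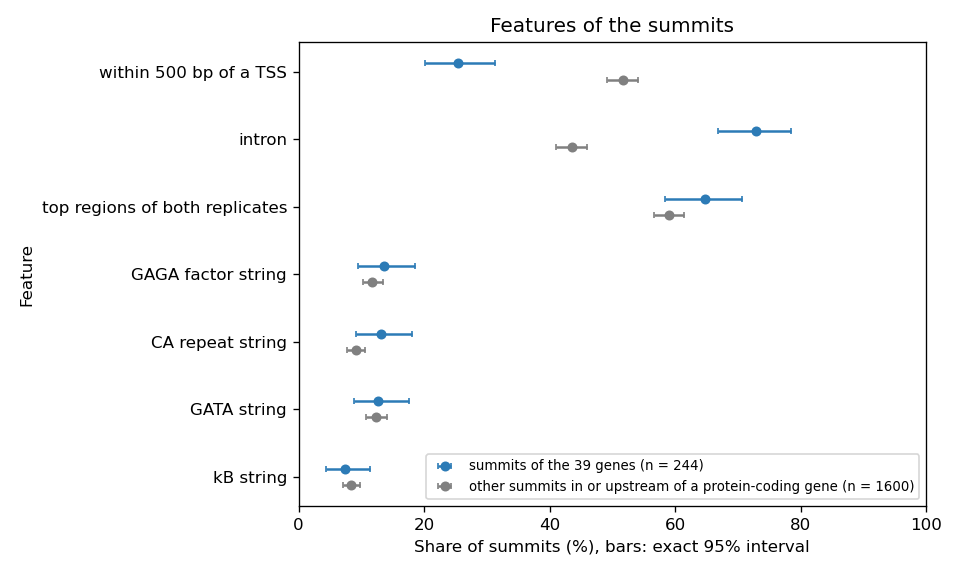
Share of summits (x axis, %) with each feature (y axis) for the 244 summits of the 39 genes (blue) and the 1600 other summits in or upstream of a protein-coding gene (grey), with bars for exact 95% intervals. The groups part at promoters (25.4% against 51.6%) and introns (73.0% against 43.5%), and their bars overlap for the replicate share and the 4 strings.

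GAGAGAG windows were spread over 21 of the 39 genes, and 18 genes had 0. Tlk, brat and lola had 3 each, and tara, CG1677, Mur2B, Syp, bun and fz2 had 2. Among the 62 summits at promoters 14 windows (22.6%, exact interval 12.9 to 35.0) held it, and among the 182 others 19 (10.4%, 6.40 to 15.8). In the rest of the list these shares were 14.4% (12.1 to 17.0) and 7.90% (6.35 to 9.69). In Mur2B, 5 of 7 windows held CACACACA, the most of any of the genes. They were those of summits 1, 2, 3, 4 and 6, of which all but summit 1 are shared with br, left out by the rule.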

How the data were processed

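The deposited files are peak lists on dm6 from 2 biological replicates of Rel-GFP larvae. Per the labels and the accompanying text, the authors gave the IDR procedure relaxed lists of 30000 regions for each replicate and for pooled reads, with a control alignment, and kept 2133 peaks. The deposited signal value and −log10 q of a region are the authors' own and served for ranks within a list and for 1 alternative set (q under 0.05). The sources used here do not give the aligner or the peak caller. Lists on dm3 were not used here.

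Genes, TSS and exons came from Ensembl release 115 (BDGP6.54, dm6 coordinates, main chromosomes), and sequence from the RefSeq copy of the same assembly. A summit counted for every protein-coding gene that held it or had it within 1000 bp upstream, and ranks follow the signal. Coordinates are counted from 1. Summits took the first fitting class of promoter (within 500 bp of a protein-coding TSS), coding sequence, untranslated exon, intron, non-coding gene and intergenic. Regions shared with a replicate overlapped a top 2133 region by at least 1 bp. Strings were searched on both strands 100 bp either side of a summit. Those not given in the report were AP-1 (TGANTCA), the E-box (CACGTG), the nuclear receptor half-site (AGGTCA), Zelda (CAGGTAG), DREF (TATCGATA), M1BP (GGTCACAC) and STAT (TTCNNNGAA). They were in 11, 7, 5, 2, 2, 0 and 9 of the 244 member windows (4.51, 2.87, 2.05, 0.820, 0.820, 0 and 3.69%). At the other summits in or upstream of protein-coding genes the shares were 4, 1.94, 3.44, 1.19, 1.125, 0.625 and 4.25%.

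The members, gene lists and motifs were chosen with earlier results of these data known. Named in the text are all members, the 10 longest other genes and the 5 strongest genes with exactly 4 summits. Described in full are the 10 members with most summits, the 8 densest, the 5 most closely spaced and the 5 with the strongest summit. Of 521 list symbols, 498 matched. Roles of members, and remarks on further single genes, were chosen after their values were seen. Alternatives changed the list, the replicate, the distances or the threshold. Gene assignment and spacing were tested on simulated data. The software was Python 3.11.15 with scipy 1.17.1, pandas 2.3.3 and numpy 2.4.6, and figures were drawn in matplotlib 3.10.9.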

Additional observations from a re-analysis of the deposited data

Results flagged for a closer look

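The pooled relaxed list held signal beyond the IDR list in the same genes. Of 2103 pooled regions with a q value under 0.05 outside the IDR list, 128 (6.09%) had their summit in one of the 39 genes or up to 1000 bp upstream, and 36 of the 39 genes had at least 1. Counting all pooled regions with such a q value, Tet held 17, Tlk, CG1677 and Mur2B 15 each, and jing and tara 14 each. This was noted because these regions were outside the main count, and their reproducibility was not tested. The pooled list comes from the reads that chose the genes, and the genes are long, so the count of 36 is no separate support. The share of other genes of like length with such a region is not given here.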

How the results depend on the processing

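Membership depended on the list. With 1 replicate in place of the pooled list, the number of genes with 5 or more summits was 40 without replicate 2 (30 of the 39 among them) and 38 without replicate 3 (29 of them). It was 6 in the upper part of the IDR list (its 1066 strongest peaks), 125 among pooled regions at q under 0.05, 79 with at least 4 summits and 23 with at least 6. The median spacing was 2549 to 2949 bp without 1 replicate, 6132 bp in the upper part of the list, 2169 bp with q under 0.05, 4005 bp with close summits merged and 3308 bp with at least 6 summits. The median density was 0.115 to 0.126 per kb without 1 replicate, 0.0827 in the upper part, 0.181 with q under 0.05 and 0.109 with at least 6 summits. The promoter share was 24.1 to 24.4% without 1 replicate, 13.5% within 200 bp of a TSS and 35.7% within 1000 bp. The GAGAGAG share was 12.4 to 18.9% without 1 replicate, 5.33% in windows of 50 bp either side and 29.1% in windows of 200 bp. The share of summits in both replicates was 53.3% at a reciprocal overlap of 50%, 34.8% with 1066 regions a replicate, 91.4% with 2 times as many and 93.75% for the upper part. The promoter share was 31.25% in the upper part and 26.5% with q under 0.05, and the GAGAGAG share 12.5% and 11.5%. The cause of these changes was not tested. Counting summits in the gene only, or up to 2000 bp upstream, gave 34 and 43 genes. Merging left 30 genes. Leaving out summits in the excepted genes (38 genes) or at other genes' TSS (35 genes) and averaging the GAGAGAG share over genes (13.3%) were chosen after seeing the data. No paired analysis was possible because the samples form 1 group. Depth is unknown and limits all counts.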

Other observations

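Some genes just below the threshold in the pooled list passed it in single replicates. Pli, a Pellino homologue of Toll signalling, held 4 IDR summits and 5 summits in the top regions of each replicate. Snoo, the Ski and Sno family corepressor of TGF-β signalling, held 4 in the IDR list, 7 in replicate 2 and 6 in replicate 3, and 11 among pooled regions with a q value under 0.05. The Dpp receptor gene tkv held 4 in the IDR list, 3 in replicate 2 and 7 in replicate 3, and 13 among those pooled regions, more than in 33 of the 39 genes.

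Relaxed regions of any strength had a median density of 0.570 per kb over the 39 genes, beside 0.224 per kb for the main chromosomes. The first value is a median of genes and the second covers all sequence. The relaxed list comes from the same reads as the list that chose the genes, so a higher density is no separate result.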
